A study of Mus musculus with 16 samples.

Results

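FAN treatment and feeding regimen were combined in this experiment on mouse kidney, and the results given here are those of their interaction: for each gene, the change after FAN under time-restricted feeding minus that under free feeding. A total of 16 kidney libraries of C57BL6 mice entered it, and every mouse was on a high-fat diet. The groups, with 4 libraries each, had received FAN or vehicle and ate freely (adlib) or within restricted times (TRF), and all were sampled on day 15. They are called FAN adlib, FAN TRF, vehicle adlib and vehicle TRF. FAN is not written out in the labels, and column names of the count table contain the word folic. The labels give neither the hours of feeding nor the age of the mice, and they do not say that each library came from a separate animal, so p-values measure only the spread between these libraries, which may be technical. The comparison was made for all 52338 genes of the table, of which 17731 had enough reads to be tested.

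As background, the proximal tubule reabsorbs most of what the glomerulus filters and pays for it by oxidising fatty acids and other fuels in its many mitochondria. It also breaks down amino acids, makes NAD from tryptophan and makes glucose. Injured tubule cells lose these transcripts and switch on injury markers such as KIM-1 and NGAL, while matrix-producing cells and macrophages gather around them. In a whole-kidney library, fewer cells of a type and less RNA per cell cannot be told apart.

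The deposited counts were scaled between libraries by TMM and are given as CPM, read counts relative to the scaled library total. A gene is called for the interaction where edgeR's quasi-likelihood test gave a Benjamini-Hochberg adjusted p below 0.05 over all genes tested. The log2 difference below is positive (called higher) where the FAN change was higher under TRF and negative (called lower) where it was lower. Within a sentence, FAN adlib libraries are given in the order 6, 7, 10 and 12, FAN TRF libraries in the order 6, 10, 11 and 12, and vehicle libraries in the order 1 to 4. Thresholds missed in a fit with same-numbered libraries as blocks are given only in the closing section.

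The interaction called 1625 genes, or 9.16% of those tested. Of these, 1376 (7.76%) were higher and 249 (1.40%) were lower, so 84.7% of calls were higher. An absolute log2 difference of at least 1 was reached by 757 of the higher (4.27% of genes tested) and 124 of the lower genes (0.699%). The split depended on the scaling: with library size alone, the median over all genes moved from 0.02 to −0.57, and 504 genes were called higher and 6127 lower (7.60% higher). Under that scaling 1544 of the 1625 genes kept the sign they have with TMM. All log2 differences below are therefore differences relative to the bulk of the genes. List counts under library-size scaling, given below, stand beside those 504 higher and 6127 lower calls among 17731 genes. The list medians under that scaling stand beside −0.57. Leaving out 1 library at a time gave 1025 to 1819 higher and 126 to 552 lower calls; the lower count was 552 without FAN adlib 10 and 126 to 154 without FAN adlib 6 or 7, FAN TRF 10 or 12, vehicle adlib 4, or vehicle TRF 2 or 3.

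Most calls were smaller FAN changes under TRF, not new ones. Of the 1376 higher genes, 1208 (87.8%) were lower after FAN under both regimens and less so under TRF, 161 (11.7%) had estimates of opposite sign and 7 had a larger rise. Their median level after FAN was 33.4% of vehicle under adlib feeding and 70.8% of vehicle under TRF. Of the 249 lower genes, 193 (77.5%) were higher after FAN under both regimens and less so under TRF, 54 had estimates of opposite sign and 2 had a larger fall. Their median level was 329% of vehicle under adlib feeding and 142% under TRF.

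**Figure D1:**
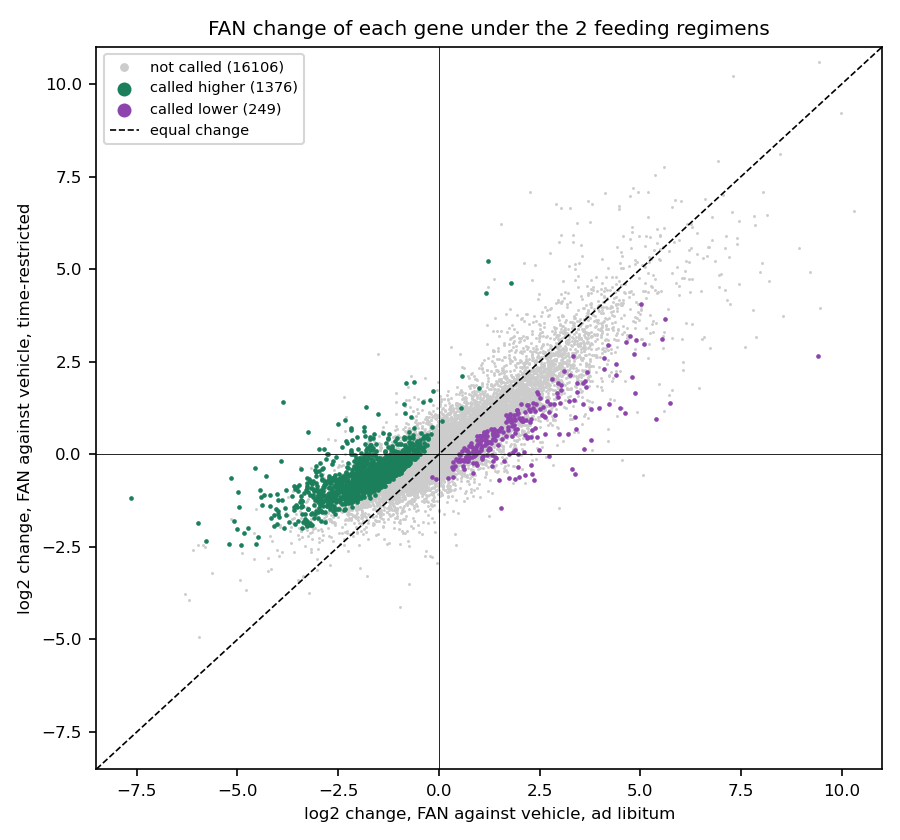
Each point is 1 of the 17731 genes tested, with its log2 change after FAN under adlib feeding on the horizontal axis and under TRF on the vertical axis. The 1376 genes called higher (green) lie above the line of equal change, mostly at falls under both regimens, and the 249 called lower (purple) lie below it, mostly at rises.

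The 4 simple comparisons are the parts of this difference and give no independent support to it. FAN was called for 10770 genes (60.7%) under adlib feeding and 7719 (43.5%) under TRF. TRF was called for 5639 genes (31.8%) within FAN and for 0 within vehicle by edgeR, where 1143 genes had an unadjusted p below 0.05 and the smallest adjusted p was 0.0736. DESeq2 called 58 genes there and limma voom 35. Among the FAN libraries, all 4 TRF values lay above all 4 adlib values for 1320 of the 1376 higher genes, against 15.7% of all genes tested, and below them for 214 of the 249 lower genes, against 12.3%; those libraries enter the test itself.

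Total counts ran from 12450812 to 33976660 per library, at which a count of 0 allows up to 0.0883 to 0.241 CPM, for counting error only. As a check of the kidney label, all 45 proximal tubule markers had a mean of at least 1 CPM, while 7 of 8 adrenal cortex markers had a mean below 1 CPM. The column names carry S numbers, taken here as sheet positions, though the names do not say what they stand for. Gaps of over 50 between S numbers part the libraries into 3 sets. FAN adlib 6 and 7, FAN TRF 6 and vehicle 1 and 2 of each regimen are in the first, vehicle 3 and 4 in the second, and the other FAN libraries in the third. The first set is called the earlier sheet positions and the others the later ones. FAN adlib libraries did not overlap the other groups in 3 library measures. The TMM factor, which multiplies the library total, was 1.32 to 1.53 there, 0.86 to 0.97 in FAN TRF, 0.844 to 0.922 in vehicle adlib and 0.816 to 0.891 in vehicle TRF libraries, and it is what library-size scaling leaves out. Mitochondrial genome transcripts took a share of counts of 10.3% ± 3.83 (SD, n = 4) there, 24.9% ± 2.4 in FAN TRF, 20.3% ± 2.32 in vehicle adlib and 19.8% ± 1.35 in vehicle TRF libraries. Levels relative to the vehicle mean climbed with transcript length by 0.10 to 0.25 log2 units per doubling of length in FAN adlib, 0.03 to 0.08 in FAN TRF and −0.02 to 0.03 in vehicle libraries. The median transcript length was 1723 bases for genes called higher, 3905 for those called lower and 2412 for all tested. With the length trend removed, 1365 genes were called higher and 221 lower, and with mitochondrial genome transcripts left out 1300 and 276.

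**Figure D2:**
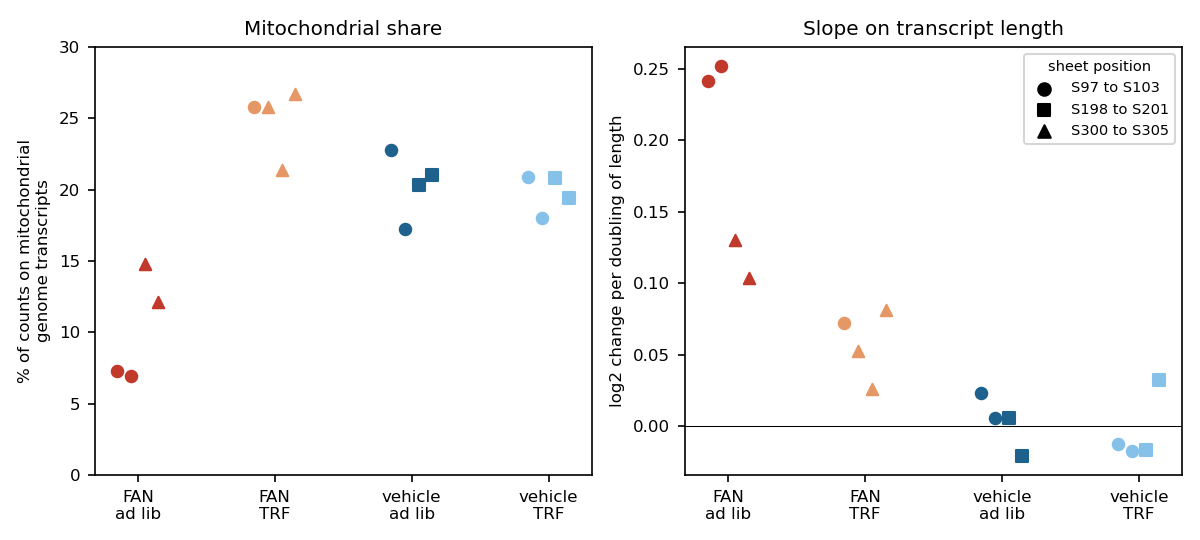
Each point is 1 library, with its share of counts on mitochondrial genome transcripts in percent (left) and its slope of log2 level on transcript length per doubling of length (right), by group and set of sheet positions. The 4 FAN adlib libraries have the lowest shares and the steepest slopes, and within that group libraries 6 and 7, of the first set, lie beyond 10 and 12 in both.

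Transport genes of the proximal tubule lay closer to vehicle after FAN under TRF than under adlib feeding. Of 45 tested, 25 were called higher and 0 lower, against 7.76% higher over all genes. The median log2 difference of the 45 was 1.12 (0.02 over all genes), and their median level after FAN was 26.9% of vehicle under adlib feeding and 57.3% under TRF. Counts were 16 higher and 1 lower under library-size scaling, with a median of 0.50.

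Slc27a2 (ENSMUSG00000027359, GRCm38 chromosome 2, 126552407 to 126588243) encodes an acyl-CoA synthetase that takes up and activates very long-chain fatty acids. It measured 1366, 928, 1278 and 1022 CPM in FAN adlib, 3617, 3703, 3579 and 3861 in FAN TRF, 6029, 5572, 5958 and 7039 in vehicle adlib and 6708, 5808, 6305 and 6566 in vehicle TRF libraries. The FAN groups did not overlap, both lay below all vehicle libraries, and the log2 difference was 1.64 ± 0.21 (SE, adjusted p = 0.000103). Lrp2 (ENSMUSG00000027070, GRCm38 chromosome 2, 69424340 to 69586065), which encodes megalin, the receptor for filtered proteins, measured 510.1, 377, 415 and 240.2 CPM in FAN adlib and 1105, 852, 1047 and 1154 in FAN TRF libraries. Vehicle libraries were at 1875, 1557, 1554 and 1808 CPM under adlib feeding and 1892, 1447, 1677 and 1913 under TRF. TRF FAN values again lay between the adlib FAN values and vehicle, with a log2 difference of 1.40 ± 0.26 (SE, adjusted p = 0.00234). Cubn, whose product cubilin is the partner of megalin, averaged 89.3 ± 36.9 CPM (SD, n = 4) in FAN adlib and 178 ± 11.7 in FAN TRF libraries, beside 421 and 427 in vehicle, a log2 difference of 0.98 ± 0.28 (SE, adjusted p = 0.0366). The call of Cubn held only without FAN adlib 6, FAN adlib 7, FAN adlib 12, FAN TRF 10 and vehicle adlib 2, and in the other 11 fits that left out 1 library the adjusted p was 0.0502 to 0.0691.

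Slc6a20b, an imino acid transporter, and Ggt1, the brush-border enzyme that breaks down glutathione, had log2 differences of 1.62 ± 0.21 (SE, adjusted p = 0.0001) and 1.505 ± 0.21 (SE, adjusted p = 0.000222). Slc34a1, the main phosphate transporter of the brush border, was not called: it averaged 692 ± 375 CPM in FAN adlib, 1528 ± 165 in FAN TRF, 2901 ± 246 in vehicle adlib and 3141 ± 509 in vehicle TRF libraries, a log2 difference of 1.03 (95% interval 0.21 to 1.85, adjusted p = 0.113). Pth1r, the parathyroid hormone receptor, and Kl, which encodes Klotho, had log2 differences of 0.86 (adjusted p = 0.0377) and 0.70 (adjusted p = 0.185). The call of Pth1r was lost in 10 of the 16 fits without 1 library and held only without FAN adlib 6, FAN adlib 7, FAN TRF 6, FAN TRF 10, vehicle adlib 1 and vehicle TRF 2. The threshold was missed (adjusted p in brackets) by Ggt1 (0.0825), Cubn (0.236) and Pth1r (0.511) in the libraries of earlier sheet positions alone. Cubn (0.329) and Pth1r (0.474) also missed it under library-size scaling.

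**Figure D3:**
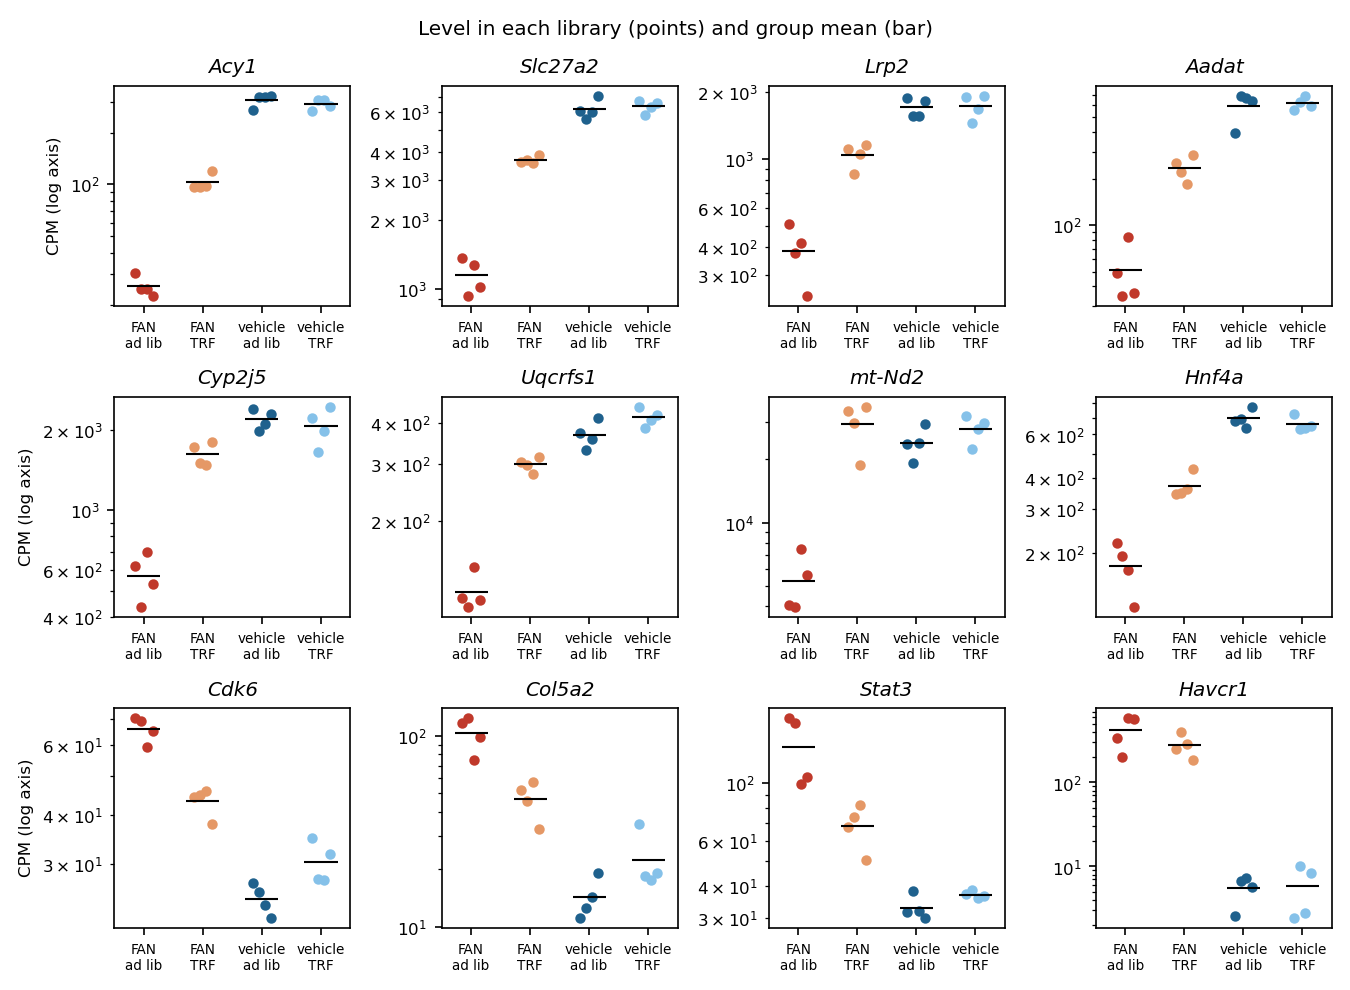
Each panel shows 1 gene in CPM on a log axis (ranges differ between panels), with a point per library and a bar at each group mean. From Acy1 to Hnf4a the FAN TRF libraries lie above the FAN adlib ones, for Cdk6, Col5a2 and Stat3 below them, and for Havcr1 the FAN groups overlap.

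Enzymes that break down amino acids or make NAD from tryptophan followed the transporters. Of 42 tested, 29 were called higher and 0 lower (background 7.76% higher), with a median log2 difference of 1.05. The median level after FAN was 27.0% of vehicle under adlib feeding and 66.7% under TRF. Counts were 17 higher and 0 lower under library-size scaling, with a median of 0.45.

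Acy1 (ENSMUSG00000023262, GRCm38 chromosome 9, 106432981 to 106438319), which frees amino acids from their acetylated forms, had the smallest p of all genes called higher. It measured 30.6, 24.8, 24.6 and 22.4 CPM in FAN adlib, 97.01, 96.9, 97.5 and 119 in FAN TRF, 269, 319.5, 321 and 326 in vehicle adlib and 268, 309, 307 and 283 in vehicle TRF libraries. No values of the FAN groups overlapped, and FAN stood at 8.29% of vehicle under adlib feeding and 35.1% under TRF, with a log2 difference of 2.08 ± 0.17 (SE, adjusted p = 3.24e-06). Haao, the last enzyme of the kynurenine branch before quinolinate, averaged 36.9 ± 9.35 CPM in FAN adlib and 145 ± 10.1 in FAN TRF libraries against 386 and 377 in vehicle (log2 difference 1.999 ± 0.21 (SE, adjusted p = 2.35e-05)). Hpd (ENSMUSG00000029445, GRCm38 chromosome 5, 123171807 to 123182727), which acts in tyrosine breakdown, was among the largest differences. Its libraries measured 3.58, 2.95, 1.22 and 1.03 CPM in FAN adlib and 11.5, 13.1, 21.0 and 14.1 in FAN TRF, beside 94.2, 76.7, 58.0 and 76.7 in vehicle adlib and 36.5, 64.6, 67.8 and 39.6 in vehicle TRF. Even the highest FAN library stayed below all vehicle libraries, and the log2 difference was 3.28 ± 0.46 (SE, adjusted p = 0.000296). Dmgdh, of choline and glycine breakdown, and Hibadh, of valine breakdown, had log2 differences of 1.81 ± 0.20 (SE, adjusted p = 4.87e-05) and 1.39 ± 0.17 (SE, adjusted p = 8.21e-05). Other genes at the top of the higher side were Nat8, which acetylates cysteine conjugates, at 2.36, Etnppl, a phosphoethanolamine lyase, at 2.65, and Inmt, an indole and thioether methyltransferase, at 2.73, from 158 to 1026 CPM within FAN. All 12 genes with the smallest p on the higher side, which include Cmbl, Hsd3b3, Sugct, Eci3, Ttc36, Me1 and Aqp11, were called in each of the 28 alternative fits run.

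Cytochrome P450 genes, which oxidise drugs, steroids and fatty acids, were called higher for 11 of 25 and lower for 0, against 7.76% higher over all genes. Their median log2 difference was 1.39, and the median level after FAN was 25.3% of vehicle under adlib feeding and 69.8% under TRF. Counts were 9 higher and 1 lower under library-size scaling, with a median of 0.79. Cyp2j5 (ENSMUSG00000052520, GRCm38 chromosome 4, 96628773 to 96664154), an epoxygenase of arachidonic acid, measured 621, 435, 699 and 529.6 CPM in FAN adlib, 1718, 1500.1, 1472 and 1800.3 in FAN TRF, 2401, 1977, 2106 and 2290.0 in vehicle adlib and 2218, 1649, 1985 and 2433 in vehicle TRF libraries. The FAN groups did not overlap, while 2 FAN TRF libraries reached into the range of the vehicle TRF ones. Its log2 difference was 1.59 ± 0.23 (SE, adjusted p = 0.000286), and that of Cyp2a4, a steroid hydroxylase, was 1.85 ± 0.23 (SE, adjusted p = 7.52e-05). Genes of the Cyp2a, Cyp2j and Cyp4a clusters are near-identical copies that can share reads, so single values are uncertain. The steroid-metabolising aldo-keto reductases Akr1c14 and Akr1c18 had 2 of the largest differences, 3.03 ± 0.38 (SE, adjusted p = 9.63e-05) and 3.28 ± 0.66 (SE, adjusted p = 0.00545). In the libraries of earlier sheet positions alone, Akr1c18 had an adjusted p of 0.27.

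Nuclear genes of the respiratory chain were called higher for 32 of 35 (background 7.76%) and lower for 0, with a median log2 difference of 0.95, and their level after FAN was 41.6% of vehicle under adlib feeding and 76.8% under TRF. With library size as the scaling only 6 of these were called higher, with a median of 0.36, and 16 were called higher in the libraries of later sheet positions alone. Uqcrfs1 (ENSMUSG00000038462, GRCm38 chromosome 13, 30540308 to 30545362), the iron-sulfur subunit of complex III, measured 116, 108, 144 and 114 CPM in FAN adlib, 304.33, 297, 279.7 and 315 in FAN TRF, 372, 329, 359 and 415 in vehicle adlib and 449, 386, 409 and 425 in vehicle TRF libraries. The FAN groups did not overlap, and the log2 difference was 1.13 ± 0.17 (SE, adjusted p = 0.000292). Sdhb and Sdhc, subunits of complex II, had log2 differences of 1.28 and 1.01 (adjusted p = 0.000381 and 0.000344). Genes of the citric acid cycle were called higher for 13 of 20 (background 7.76%) and lower for 0, at a median of 0.70, where library-size scaling left 1 higher call and a median of 0.10. Without FAN TRF 12 there were 7 higher calls in that list and without vehicle TRF 3 there were 8.

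Fatty acid oxidation genes were called higher for 18 of 28 (background 7.76%) and lower for 0, with a median log2 difference of 0.90 and a level after FAN of 40.9% of vehicle under adlib feeding and 73.3% under TRF. Counts were 8 higher and 1 lower under library-size scaling, with a median of 0.30, and 5 higher in the libraries of earlier sheet positions alone. Hadh (ENSMUSG00000027984, GRCm38 chromosome 3, 131233419 to 131272101), which carries out the third step of the beta-oxidation spiral on shorter chains, measured 221, 188, 199.41 and 168 CPM in FAN adlib and 507, 545, 532 and 628 in FAN TRF libraries. Vehicle libraries measured 655, 612, 588 and 699 under adlib feeding and 828, 700.2, 747 and 693 under TRF. TRF FAN values lay above all adlib FAN values, with a log2 difference of 1.29 ± 0.17 (SE, adjusted p = 0.000143). Acat1, a thiolase that also acts in ketone body use, and Acox2, a peroxisomal oxidase of branched chains and bile acid precursors, had log2 differences of 1.54 ± 0.23 (SE, adjusted p = 0.00031) and 1.80 ± 0.28 (SE, adjusted p = 0.000549). Cpt1a, the entry enzyme of the mitochondrial route, was not called, at 0.33 (95% interval −0.14 to 0.80, adjusted p = 0.392). In the libraries of earlier sheet positions alone, Acox2 had an adjusted p of 0.123.

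All 13 protein-coding transcripts of the mitochondrial genome were called higher (background 7.76%), with a median log2 difference of 2.12. Library-size scaling also gave 13 higher calls, with a median of 1.54. These transcripts moved with the mitochondrial share given above, of which they are part. mt-Nd2 (ENSMUSG00000064345), a subunit of complex I, measured 4040.2, 3953, 7521 and 5652 CPM in FAN adlib, 33960.3, 29806, 18775 and 35449.6 in FAN TRF, 23652, 19182, 23846 and 29419.9 in vehicle adlib and 32045, 22413, 27770.3 and 29823 in vehicle TRF libraries. Only the FAN adlib libraries lay below the range of the others, and the log2 difference was 2.26 ± 0.34 (SE, adjusted p = 0.000412). mt-Atp6 averaged only 1.19 to 6.88 CPM in the FAN groups and overlaps mt-Atp8, so its value is uncertain.

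Glucose production genes were called higher for 5 of 15 (background 7.76%) and lower for 0. Their median log2 difference was 1.15. Without FAN adlib 6 there were 8 higher calls. Slc37a4, which carries glucose 6-phosphate into the endoplasmic reticulum, had a log2 difference of 1.59 ± 0.21 (SE, adjusted p = 0.000133). Pck1, the first committed enzyme, was not called at 1.61 (95% interval 0.29 to 2.93, adjusted p = 0.124). Among glycolysis genes 2 of 21 were called higher and 1 lower, and the median was −0.12, shares near those of all genes. That balance turned to 0 higher and 7 lower under library-size scaling, with a median of −0.74, and without 1 library it was 0 to 2 higher and 0 to 1 lower.

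**Figure D4:**
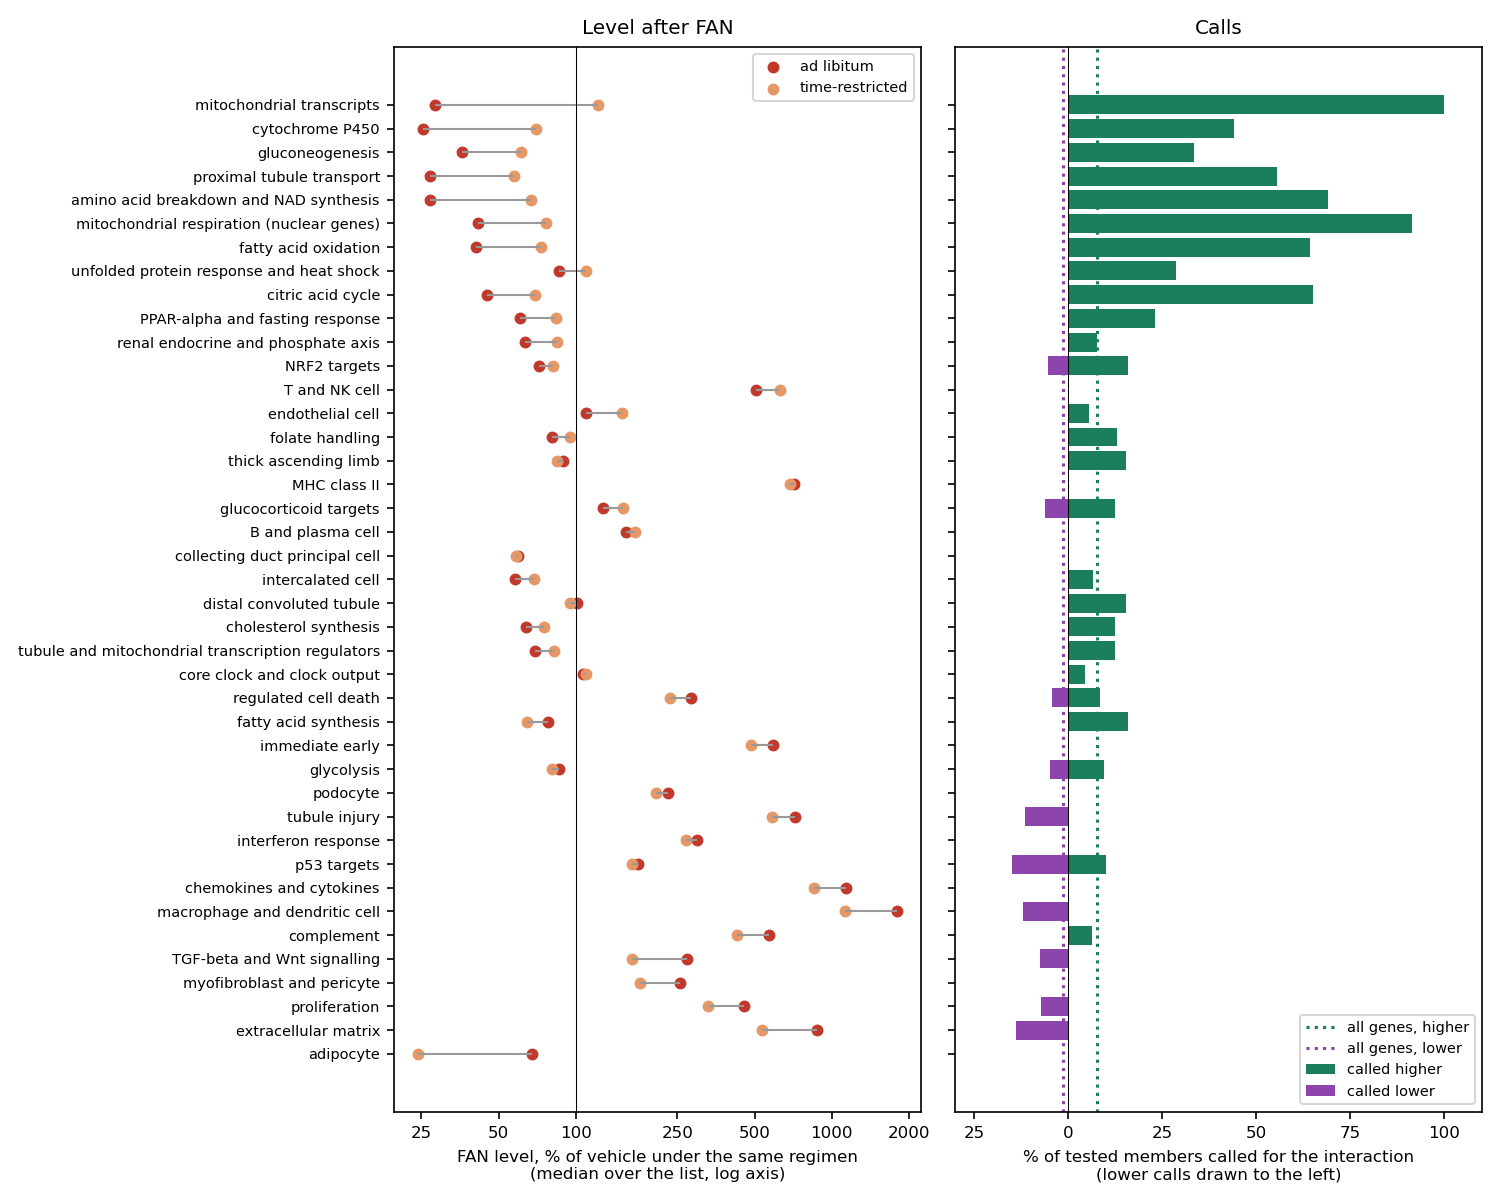
Left, the median level after FAN as a percent of vehicle under the same regimen (log axis) for each gene list with at least 10 members tested. Right, the percent of tested members called for the interaction, with dotted lines at 7.76% higher and 1.40% lower for all genes. The metabolic and proximal tubule lists at the top lie closer to vehicle under TRF, and most injury and immune lists lie far above vehicle under both regimens.

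Regulators of these programmes among the higher genes were Hnf4a, the nuclear receptor that maintains proximal tubule identity, Klf15, a glucocorticoid-induced regulator of amino acid and lipid breakdown, and Esrra, a nuclear receptor for mitochondrial genes. They were the 3 called higher of 24 regulators tested (background 7.76%), with 0 lower. The median of the 24 was 0.05, near the 0.02 over all genes. Without FAN adlib 10 there were 5 higher calls. Counts turned to 1 higher and 4 lower under library-size scaling, with a median of −0.57. Hnf4a (ENSMUSG00000017950, GRCm38 chromosome 2, 163506808 to 163572910) measured 220.4, 195, 172 and 121 CPM in FAN adlib, 345, 350.3, 360.5 and 435 in FAN TRF, 682, 694, 635 and 774 in vehicle adlib and 725, 629, 636 and 651 in vehicle TRF libraries. The FAN groups did not overlap and both lay below vehicle, with a log2 difference of 1.15 ± 0.22 (SE, adjusted p = 0.00247). Klf15 was at 1.57 ± 0.31 (SE, adjusted p = 0.00331), and Esrra at 0.61 ± 0.18 (SE, adjusted p = 0.0403) with a call that held only without FAN adlib 7, FAN adlib 10, FAN TRF 11, vehicle adlib 2 and vehicle TRF 2 (adjusted p 0.0506 to 0.0959 in the other 11 such fits). Ppargc1a and Ppara, both central to oxidative metabolism, were not called, at 0.02 (95% interval −0.62 to 0.66, adjusted p = 0.981) and 0.29 (95% interval −0.73 to 1.30, adjusted p = 0.763). Of clock and clock output genes 1 of 23 was called higher (background 7.76%), Hlf (ENSMUSG00000003949, GRCm38 chromosome 11, 90336536 to 90390895), a PAR bZIP factor. It measured 35.7, 27.8, 20.5 and 16.9 CPM in FAN adlib and 79.7, 51.1, 55.5 and 77.1 in FAN TRF libraries, beside 150.5, 112, 92.7 and 112 and 119.7, 89.2, 118 and 122 in the 2 vehicle groups. Its FAN groups did not overlap, and the log2 difference was 1.44 ± 0.30 (SE, adjusted p = 0.00512). Dbp, of the same family, and the core clock gene Arntl were not called, at −0.11 (95% interval −1.10 to 0.89, adjusted p = 0.927) and −0.48 (95% interval −1.43 to 0.47, adjusted p = 0.565). The threshold was missed by Hnf4a (0.0505) and Esrra (0.987) under library-size scaling. Hnf4a (0.0878) and Esrra (0.179) also missed it in the libraries of earlier sheet positions alone. Esrra also missed it with no filter on low counts (0.0949), with the trend on transcript length removed (0.0513) and in the libraries of later sheet positions alone (0.0957).

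Promoter sequence is shown because Hnf4a, Hlf, Klf15 and Stat3, which bind known motifs, were among the genes called. The 250 bases before the RefSeq start (GRCm38.p6) were searched on both strands for CAAAGTCCA (HNF4 type), TTATGTAA (PAR bZIP), CCACCC (KLF type) and TTCCNGGAA (STAT type), none of which contains another. A promoter was found by symbol for 12587 genes tested, 1047 called higher and 184 called lower. CAAAGTCCA occurred in 0.477% of genes tested, 0.86% of those called higher (9 genes) and 0.543% of those called lower (1 gene). TTATGTAA occurred in 0.675%, 1.43% (15 genes) and 0.543% (1 gene), CCACCC in 37.4%, 34.9% and 49.5%, and TTCCNGGAA in 1.25%, 1.15% and 1.09%. These are matches of letters, not binding sites, and no test was made of them. The promoters of 4 genes called higher are examples, chosen after their values were seen, with the match in capitals: Aadat, a kynurenine aminotransferase, at chr8:60505874-60506123 (plus strand), and Agxt2, an aminotransferase of dimethylarginine, at chr15:10358283-10358532 (plus strand), with the reverse complement of CAAAGTCCA in Aadat and CAAAGTCCA itself in Agxt2 from −72 and −21 relative to the start, and Slc17a1, an apical phosphate and urate transporter, at chr13:23868768-23869017 (plus strand), and Miox, the inositol oxygenase of the proximal tubule, at chr15:89334223-89334472 (plus strand), with TTATGTAA or its reverse complement from −55 and −58.
Aadat: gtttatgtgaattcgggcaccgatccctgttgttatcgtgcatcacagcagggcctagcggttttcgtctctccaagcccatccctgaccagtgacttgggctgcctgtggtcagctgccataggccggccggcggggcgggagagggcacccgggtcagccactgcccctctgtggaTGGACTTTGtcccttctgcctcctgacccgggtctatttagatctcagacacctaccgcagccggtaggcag
Agxt2: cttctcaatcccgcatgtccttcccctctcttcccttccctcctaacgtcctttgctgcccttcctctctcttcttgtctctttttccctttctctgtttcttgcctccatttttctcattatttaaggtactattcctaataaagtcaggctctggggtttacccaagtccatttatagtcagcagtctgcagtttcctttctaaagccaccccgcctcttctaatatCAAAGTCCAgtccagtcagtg
Slc17a1: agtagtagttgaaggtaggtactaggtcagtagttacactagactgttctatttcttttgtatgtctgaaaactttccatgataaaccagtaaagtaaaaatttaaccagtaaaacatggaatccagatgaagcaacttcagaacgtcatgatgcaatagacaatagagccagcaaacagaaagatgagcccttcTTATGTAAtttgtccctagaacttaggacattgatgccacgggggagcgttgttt
Miox: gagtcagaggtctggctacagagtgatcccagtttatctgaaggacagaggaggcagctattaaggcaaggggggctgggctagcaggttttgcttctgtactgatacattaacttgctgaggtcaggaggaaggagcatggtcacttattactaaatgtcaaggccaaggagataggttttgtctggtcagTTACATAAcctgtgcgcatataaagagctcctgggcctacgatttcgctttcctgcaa

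The 4 genes shown had these levels. Aadat measured 49.1, 34.5, 84.1 and 36.3 CPM in FAN adlib, 254, 221, 185 and 284 in FAN TRF, 394, 689, 668 and 636 in vehicle adlib and 562, 631, 687 and 591 in vehicle TRF libraries, a log2 difference of 2.16 ± 0.34 (SE, adjusted p = 0.000562). Slc17a1 measured 215, 157, 251 and 190.1 CPM in FAN adlib and 637, 587, 658 and 782 in FAN TRF libraries, with means of 765 and 839.5 in vehicle and a log2 difference of 1.58 ± 0.23 (SE, adjusted p = 0.000239). Miox measured 331, 246, 261 and 118 CPM in FAN adlib and 725, 945, 1205 and 1190.2 in FAN TRF libraries, with means of 2103 and 2173 in vehicle and a log2 difference of 2.04 ± 0.37 (SE, adjusted p = 0.0015). In all 3 the FAN groups did not overlap. The log2 difference of Agxt2 was 1.46 ± 0.26 (SE, adjusted p = 0.00125). In the libraries of earlier sheet positions alone the adjusted p was 0.0811 for Miox and 0.0948 for Agxt2.

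A small set of genes went below vehicle under adlib feeding and above it under TRF, or the reverse, with FAN itself called under each regimen. There were 8 such genes with a mean of at least 5 CPM: Clpx, Osbpl8, Cyba, Ttr, Tsc22d3 and Retreg1 on the higher side and Zfp512b and Aen on the lower. Clpx (ENSMUSG00000015357, GRCm38 chromosome 9, 65294260 to 65330658), the chaperone subunit of a mitochondrial matrix protease, measured 61.4, 52.0, 66.9 and 56.3 CPM in FAN adlib, 104.91, 133, 127 and 144 in FAN TRF, 96.8, 82.3, 78.8 and 89.5 in vehicle adlib and 106, 85.3, 92.3 and 111 in vehicle TRF libraries. FAN thus stood at 68.1% of vehicle under adlib feeding and 129% under TRF, a log2 difference of 0.92 ± 0.17 (SE, adjusted p = 0.00244). Ttr (ENSMUSG00000061808, GRCm38 chromosome 18, 20665280 to 20674321), which encodes the thyroxine and retinol carrier transthyretin, measured 172, 99.4, 138 and 119 CPM in FAN adlib, 393, 462, 276 and 267 in FAN TRF, 166, 242, 169 and 229 in vehicle adlib and 263, 145, 221 and 233 in vehicle TRF libraries. Its FAN groups did not overlap, and the log2 difference was 1.31 ± 0.31 (SE, adjusted p = 0.0116). Tsc22d3, the glucocorticoid-induced leucine zipper, stood at 64.5% and 143% of vehicle (1.15 ± 0.27 (SE, adjusted p = 0.0123)), and Cyba, the p22 subunit of NADPH oxidase, at 63.6% and 136% (1.09 ± 0.23 (SE, adjusted p = 0.00611)). Among alternatives, the threshold was missed by Osbpl8 (0.273), Ttr (0.0841), Tsc22d3 (0.14), Retreg1 (0.277), Zfp512b (0.321) and Aen (0.357) in the libraries of later sheet positions alone. Clpx (0.105), Cyba (0.0886), Ttr (0.0626), Tsc22d3 (0.121) and Retreg1 (0.324) also missed it under library-size scaling. Clpx (0.0981), Cyba (0.0511), Ttr (0.201), Retreg1 (0.102) and Aen (0.0558) also missed it in the libraries of earlier sheet positions alone. Aen also missed it with no filter on low counts (0.0689) and with the trend on transcript length removed (0.097). Leaving out 1 library ended the call of Aen in 8 of 16 fits (adjusted p 0.0506 to 0.0672), those without FAN adlib 7, FAN TRF 6, 10 or 12, vehicle adlib 1, or vehicle TRF 1, 2 or 3.

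Chaperones were on the higher side too. Of 28 genes of the unfolded protein response and heat shock, 8 were called higher (background 7.76%) and 0 lower, with a median log2 difference of 0.71, but with library-size scaling 0 were higher, 3 were lower and the median was 0.12. The higher count was 3 to 5 without FAN adlib 7, FAN TRF 12, vehicle adlib 3 or 4, or vehicle TRF 1 or 3. Hspd1 and Hspe1, the mitochondrial chaperonin pair, averaged 274 ± 40.9 and 123 ± 43.6 CPM in FAN adlib and 523 ± 58.5 and 257 ± 22.2 in FAN TRF libraries, with log2 differences of 0.82 and 1.14 (adjusted p = 0.0158 and 0.0162). Creld2, a chaperone of the endoplasmic reticulum, differed in another way: it averaged 35.5 ± 6.52 and 44.9 ± 7.51 CPM in the overlapping FAN groups but 64.0 ± 26.3 in vehicle adlib and 32.9 ± 3.04 in vehicle TRF libraries, a log2 difference of 1.29 ± 0.31 (SE, adjusted p = 0.0121). Sterol synthesis genes were called higher for 3 of 24 and lower for 0, led by Ebp, Cyp51 and Hmgcs1, at a median of 0.10 (background 7.76% higher). The direction turned to 2 higher and 7 lower under library-size scaling, with a median of −0.49. Hmgcs1, the cytosolic synthase that starts the mevalonate route, had a log2 difference of 1.36 ± 0.28 (SE, adjusted p = 0.00452). Among NRF2 targets 3 of 19 were called higher, with Me1 (1.54) and Gclm (1.29) among them, and 1 was lower, the cystine transporter Slc7a11, at 1.94 against 0.593 CPM in the FAN groups. The median of the 19 was 0.40. It turned to −0.19 under library-size scaling, with 2 higher and 3 lower calls. Without vehicle TRF 3 the adjusted p of Slc7a11 was 0.0664. Elsewhere the threshold was missed by Hspd1 (0.358), Hspe1 (0.093), Creld2 (0.0729) and Ebp (0.0813) under library-size scaling. Hspd1 (0.105), Creld2 (0.113) and Slc7a11 (0.2) also missed it in the libraries of earlier sheet positions alone. Hspd1 (0.0653), Cyp51 (0.0588) and Slc7a11 (0.0898) also missed it in the libraries of later sheet positions alone.

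Of 26 fasting and PPAR-alpha targets tested, 6 were called higher (background 7.76%) and 0 lower, and 23 estimates were positive and 3 negative. The median of 0.51 turned to −0.09 under library-size scaling, where 2 were called higher and 2 lower. Cd36, the fatty acid receptor, and Ehhadh, a peroxisomal bifunctional enzyme, had log2 differences of 1.36 ± 0.30 (SE, adjusted p = 0.00676) and 1.65 ± 0.35 (SE, adjusted p = 0.00496). Pdk4, which shuts glucose carbon out of the mitochondrion, averaged 76.7, 333, 23.8 and 92.2 CPM in FAN adlib, FAN TRF, vehicle adlib and vehicle TRF libraries, with a log2 difference of 0.16 (95% interval −0.93 to 1.25, adjusted p = 0.894). Under other settings the threshold was missed by Cd36 (0.159) in the libraries of later sheet positions alone. Ehhadh (0.497) also missed it in the libraries of earlier sheet positions alone.

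Other lists held fewer calls, beside 7.76% higher and 1.40% lower over all genes tested. Folate handling genes were higher for 3 of 23 (6 without FAN adlib 6) and lower for 0, at a median of 0.32 that turned to −0.27 under library-size scaling. Ftcd, of histidine and folate metabolism, had a log2 difference of 1.57 ± 0.32 (SE, adjusted p = 0.00378), with an adjusted p of 0.0747 in the libraries of earlier sheet positions alone. Fatty acid synthesis genes were higher for 3 of 19, glucocorticoid targets higher for 2 and lower for 1 of 16, p53 targets higher for 2 and lower for 3 of 20 (1 lower without FAN adlib 7, FAN TRF 6 or 12, vehicle adlib 1 or 4, or vehicle TRF 1), and cell death genes higher for 2 and lower for 1 of 24. Acss2, which makes cytosolic acetyl-CoA from acetate, had a log2 difference of 1.47 ± 0.18 (SE, adjusted p = 7.52e-05). Complement and renal endocrine genes had 1 higher call each, of 16 and 13 tested. The higher shares of the cell death, complement and renal endocrine lists were near that of all genes. Under library-size scaling the higher and lower calls were 504 and 6127 over all 17731 genes, 2 and 9 for folate handling, 2 and 6 for fatty acid synthesis, 1 and 2 for glucocorticoid targets, 0 and 10 for p53 targets, 0 and 9 for cell death, 0 and 7 for complement, 0 and 1 for renal endocrine and 1 and 8 for clock genes. The largest differences outside these lists on the higher side included Dnase1, the secreted nuclease, from 32.7 ± 19.3 CPM in FAN adlib to 255 ± 100.95 in FAN TRF libraries with 1058 and 1026 in vehicle, at 3.003 ± 0.53 (SE, adjusted p = 0.00157), and Dpys, of pyrimidine breakdown, at 2.93 ± 0.41 (SE, adjusted p = 0.00023).

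On the lower side the top gene was Cdk6 (ENSMUSG00000040274, GRCm38 chromosome 5, 3341485 to 3531008), a kinase of the G1 phase. It measured 70.3, 69.1, 59.3 and 65.3 CPM in FAN adlib, 44.3, 44.8, 45.8 and 37.9 in FAN TRF, 26.8, 25.4, 23.5 and 21.8 in vehicle adlib and 34.9, 27.4, 27.3 and 31.9 in vehicle TRF libraries. All FAN values lay above all vehicle values, the FAN groups did not overlap, and the log2 difference was −0.92 ± 0.16 (SE, adjusted p = 0.000992). Of the 12 genes with the smallest p on the lower side, it was the 1 that was called in each of the 28 alternative fits, while all 12 were called in each of the 16 that left out 1 library. Stat3 (ENSMUSG00000004040, GRCm38 chromosome 11, 100885098 to 100939540), the transcription factor downstream of interleukin-6 type cytokines, measured 179, 171, 99.2 and 106 CPM in FAN adlib, 67.7, 74.1, 82.3 and 50.4 in FAN TRF, 31.6, 38.3, 32.0 and 30.0 in vehicle adlib and 37.3, 38.6, 35.8 and 36.7 in vehicle TRF libraries. The FAN groups did not overlap, and within FAN adlib libraries 6 and 7 were higher than 10 and 12; the log2 difference was −1.18 ± 0.25 (SE, adjusted p = 0.00611). Golm1 (ENSMUSG00000021556, GRCm38 chromosome 13, 59634626 to 59675811), a Golgi membrane protein, measured 35.0, 36.2, 32.8 and 22.3 CPM in FAN adlib and 14.8, 15.8, 12.8 and 11.6 in FAN TRF libraries against means of 4.07 and 4.80 in vehicle, a log2 difference of −1.41 ± 0.30 (SE, adjusted p = 0.00597). Among the largest differences on this side were C1qtnf6, a secreted C1q-like protein, from 26.9 ± 7.54 CPM in FAN adlib to 8.93 ± 3.92 in FAN TRF libraries (−2.13 ± 0.46 (SE, adjusted p = 0.00664)), and the transcription factor gene Alx1, from 18.6 ± 5.92 to 4.55 ± 1.64 (−2.09 ± 0.50 (SE, adjusted p = 0.0134)). In other fits the threshold was missed by Stat3 (0.122) and C1qtnf6 (0.0628) in the libraries of later sheet positions alone. Golm1 (0.139) and Alx1 (0.597) also missed it in the libraries of earlier sheet positions alone.

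Matrix genes supplied 5 lower calls and 0 higher among 36 tested, against 1.40% lower over all genes: Col5a2, Col8a1, Mmp14, Col4a1 and Fn1. Col4a1 is outside the rule for named genes and was named after its value was seen. The median log2 difference was −0.94, and the median level after FAN was 879% of vehicle under adlib feeding and 533% under TRF. Under library-size scaling 24 were called lower, and in the libraries of later sheet positions alone 0. Leaving out 1 library gave 11 lower calls without FAN adlib 10, 8 without vehicle adlib 2, 2 without FAN adlib 6, FAN adlib 7, vehicle adlib 3 or vehicle TRF 3, and 3 without FAN TRF 6 or 12, vehicle adlib 1 or 4, or vehicle TRF 2 or 4. Col5a2 (ENSMUSG00000026042, GRCm38 chromosome 1, 45374321 to 45503282), a fibril collagen chain, measured 117, 124, 75.1 and 98.7 CPM in FAN adlib, 52.1, 45.8, 57.5 and 32.3 in FAN TRF, 11.1, 12.5, 14.2 and 19.1 in vehicle adlib and 34.5, 18.4, 17.5 and 19.1 in vehicle TRF libraries. The FAN groups did not overlap, and the log2 difference was −1.80 ± 0.33 (SE, adjusted p = 0.00206). Pxdn, which crosslinks collagen IV, was at −1.22 ± 0.21 (SE, adjusted p = 0.00114), and Col8a1 at −1.94 ± 0.49 (SE, adjusted p = 0.0181). Fn1, which encodes fibronectin, averaged 362 ± 182 CPM in FAN adlib and 110.4 ± 32.1 in FAN TRF libraries, a log2 difference of −1.61 ± 0.47 (SE, adjusted p = 0.041), and its call held only without FAN adlib 10, FAN adlib 12, FAN TRF 11 and vehicle adlib 2 (adjusted p 0.0556 to 0.103 in the other 12 fits). Col1a1 and Acta2, the usual marks of scarring and contractile fibroblasts, were not called, at −1.35 (95% interval −2.90 to 0.21, adjusted p = 0.283) and −0.98 (95% interval −1.93 to −0.04, adjusted p = 0.19). The threshold was missed by Col5a2 (0.113), Pxdn (0.0696), Col8a1 (0.185), Mmp14 (0.244) and Fn1 (0.253) in the libraries of later sheet positions alone. Col8a1 (0.0667), Mmp14 (0.0997) and Fn1 (0.148) also missed it with no filter on low counts. Mmp14 (0.0595) and Fn1 (0.0593) also missed it with the sheet position set as a covariate. Fn1 also missed it with the trend on transcript length removed (0.0739) and in the libraries of earlier sheet positions alone (0.0514). The call of Mmp14 ended without FAN adlib 6 or 7, FAN TRF 6, vehicle adlib 3 or 4, or vehicle TRF 3 or 4 (adjusted p 0.0503 to 0.0611).

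In the TGF-beta and Wnt list 2 of 27 were called lower and 0 higher, Sfrp1 and Smad3, at a median of −0.43 (background 1.40% lower). The list had 0 higher and 12 lower under library-size scaling, with a median of −1.02. Lower calls were 5 without FAN TRF 11, 4 without FAN adlib 10, 3 without FAN adlib 12 or vehicle TRF 1, 2 without vehicle adlib 2 or vehicle TRF 2, and 1 without any 1 of the other libraries. Sfrp1 (ENSMUSG00000031548, GRCm38 chromosome 8, 23411502 to 23449632), a secreted Wnt antagonist, measured 194, 164, 187 and 154 CPM in FAN adlib, 102.57, 98.9, 105.35 and 79.5 in FAN TRF, 62.5, 56.8, 54.8 and 64.9 in vehicle adlib and 69.6, 51.2, 55.2 and 61.4 in vehicle TRF libraries. Its FAN groups did not overlap, and the log2 difference was −0.85 ± 0.17 (SE, adjusted p = 0.00436). Smad3, which relays the TGF-beta signal, was at −0.72 ± 0.22 (SE, adjusted p = 0.048), and the call held only without FAN adlib 10, FAN adlib 12, FAN TRF 11, vehicle TRF 1 and vehicle TRF 2. Tgfb1, the ligand, was not called, at −0.94 (95% interval −1.92 to 0.04, adjusted p = 0.231). Among alternatives, the threshold was missed by Sfrp1 (0.0666) and Smad3 (0.276) in the libraries of later sheet positions alone. Sfrp1 (0.0905) also missed it in the libraries of earlier sheet positions alone. Smad3 also missed it with the sheet position set as a covariate (0.0592) and with the trend on transcript length removed (0.109).

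Tubule injury markers stayed high under both regimens. Of 26 tested, 3 were called lower and 0 higher, Prom1, Clu and Lcn2, with a median of −0.17 (background 1.40% lower). After FAN itself, 25 were called higher under each regimen, against 32.1% of all genes under adlib feeding and 24.5% under TRF. Interaction calls were 0 higher and 11 lower under library-size scaling (6127 of all 17731 genes lower, median −0.57), with a median of −0.76, and 1 lower in the fits without FAN adlib 6 or 7, FAN TRF 6, 10 or 12, vehicle adlib 1 or 4, or vehicle TRF 2 or 3. Havcr1 (ENSMUSG00000040405, GRCm38 chromosome 11, 46735080 to 46779578), which encodes KIM-1, measured 342, 203, 586 and 576 CPM in FAN adlib, 248, 403, 285 and 184 in FAN TRF, 2.55, 6.73, 7.38 and 5.68 in vehicle adlib and 2.41, 10.1, 2.79 and 8.31 in vehicle TRF libraries. The FAN groups overlapped, and the log2 difference was −0.69 (95% interval −2.10 to 0.72, adjusted p = 0.575). Lcn2 (ENSMUSG00000026822, GRCm38 chromosome 2, 32384633 to 32388252), which encodes NGAL, measured 355, 379, 286 and 343 CPM in FAN adlib and 125, 117, 148 and 66.8 in FAN TRF libraries, beside 4.94, 15.7, 14.2 and 11.3 and 4.87, 22.8, 12.5 and 13.4 in the vehicle groups. Its FAN groups did not overlap, and the log2 difference was −1.80 ± 0.54 (SE, adjusted p = 0.0496), just under the threshold. That call held only without FAN TRF 11, vehicle adlib 2 and vehicle TRF 1, and in the other 13 fits the adjusted p was 0.0516 to 0.108. Prom1, a marker of regenerating tubule cells, averaged 183 ± 27.8 CPM in FAN adlib and 115 ± 21.6 in FAN TRF libraries, with 33.3 and 37.4 in vehicle (log2 difference −0.84 ± 0.21 (SE, adjusted p = 0.0147)). Clu, the secreted chaperone clusterin, was at −1.31 ± 0.40 (SE, adjusted p = 0.0487), a call that held only without FAN adlib 10, FAN adlib 12, vehicle adlib 3 and vehicle TRF 4. Vcam1 and Krt20 were not called, at 0.08 (95% interval −0.65 to 0.82, adjusted p = 0.921) and 0.06 (95% interval −2.80 to 2.93, adjusted p = 0.987). Under other settings the threshold was missed by Prom1 (0.886) and Lcn2 (0.462) in the libraries of earlier sheet positions alone. Clu (0.16) and Lcn2 (0.151) also missed it with no filter on low counts. Clu (0.108) and Lcn2 (0.101) also missed it with the sheet position set as a covariate. Clu (0.946) and Lcn2 (0.077) also missed it in the libraries of later sheet positions alone.

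**Figure D5:**
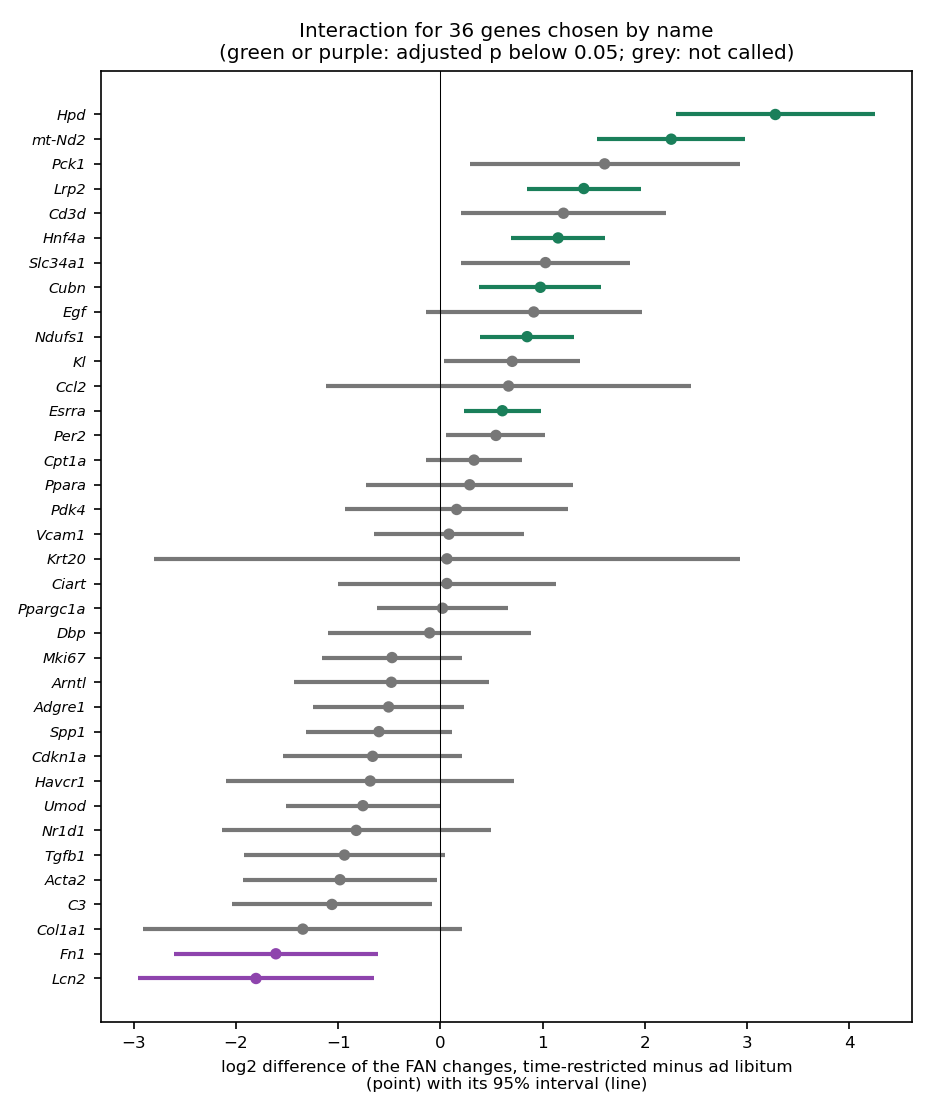
Points are the log2 difference of the FAN changes (TRF minus adlib) for 36 genes chosen by name, and lines are 95% intervals. Genes called higher (Hpd, mt-Nd2, Lrp2, Hnf4a, Cubn, Ndufs1 and Esrra) are green, Fn1 and Lcn2, called lower, are purple, and the grey intervals of Havcr1 and Krt20 extend past 0 on both sides.

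Of 25 macrophage and dendritic cell markers 3 were called lower (Mrc1, Cd163 and Siglec1), against 1.40% lower over all genes, and 0 higher, at a median of −0.30. Counts were 0 higher and 11 lower under library-size scaling (6127 of all 17731 genes lower, median −0.57), with a median of −0.87, and 1 to 3 were lower when 1 library was left out, with 1 without FAN adlib 7, FAN TRF 6, 11 or 12, or vehicle adlib 1 or 4. Their summed level was 2652 to 3888 CPM in FAN adlib, 1293 to 2540.0 in FAN TRF, 180.1 to 337 in vehicle adlib and 165 to 229 in vehicle TRF libraries. The FAN ranges did not overlap, and neither did those of FAN and vehicle. Mrc1 (ENSMUSG00000026712, GRCm38 chromosome 2, 14229392 to 14332057), the mannose receptor of macrophages, measured 78.7, 93.2, 109 and 98.3 CPM in FAN adlib and 46.7, 57.0, 52.7 and 34.2 in FAN TRF libraries against means of 2.91 and 2.84 in vehicle, and its FAN groups did not overlap. The log2 difference was −0.95 ± 0.23 (SE, adjusted p = 0.0151). Cd163 and Siglec1, scavenger and sialic acid receptors, were at −2.37 and −2.12, from 4.15 and 17.0 CPM in FAN adlib, and their calls held only without FAN adlib 6, FAN adlib 10, FAN adlib 12, FAN TRF 10, vehicle adlib 2, vehicle adlib 3, vehicle TRF 1, vehicle TRF 3 and vehicle TRF 4 for Cd163 and without FAN adlib 10, FAN adlib 12, vehicle adlib 2, vehicle TRF 2 and vehicle TRF 3 for Siglec1. Adgre1, which encodes F4/80, was not called, at −0.51 (95% interval −1.25 to 0.23, adjusted p = 0.406). Interferon response (26), MHC class II (10), chemokine and cytokine (33), T and NK cell (23), neutrophil (6), and B and plasma cell (11) members had 0 calls in either direction by edgeR at the adjusted threshold. T and NK cell markers summed to 49.2 to 83.3 CPM in FAN adlib and 43.6 to 80.3 in FAN TRF libraries. Ccl2, a monocyte chemoattractant, and C3, the complement component, were not called, at 0.67 (95% interval −1.12 to 2.45, adjusted p = 0.678) and −1.06 (95% interval −2.03 to −0.09, adjusted p = 0.17). In other fits the threshold was missed by Mrc1 (0.0652), Cd163 (0.499) and Siglec1 (0.117) in the libraries of later sheet positions alone. Mrc1 (0.0663) and Cd163 (0.106) also missed it with limma voom. Mrc1 (0.0999) and Siglec1 (0.055) also missed it in the libraries of earlier sheet positions alone. Mrc1 (0.0603) also missed it with the trend on transcript length removed. Siglec1 also missed it with no filter on low counts (0.0744) and with the sheet position set as a covariate (0.0594).

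Proliferation genes were lower for 2 of 28, Foxm1 and Top2a, and higher for 0, at a median of −0.59 (background 1.40% lower). They numbered 0 higher and 16 lower under library-size scaling, with a median of −1.18. Lower calls were 6 without FAN TRF 6, 3 without FAN adlib 10 or vehicle TRF 1, 2 without FAN adlib 12 or vehicle adlib 1 or 3, and 1 without any 1 of the other libraries. Foxm1, a transcription factor of mitotic genes, averaged 4.68 ± 0.739 CPM in FAN adlib and 2.76 ± 1.10 in FAN TRF libraries, which overlapped, and 0.411 and 0.869 in vehicle, a log2 difference of −1.73 ± 0.45 (SE, adjusted p = 0.0212). The call of Top2a, a topoisomerase of dividing cells, at −1.26, held only without FAN adlib 10, FAN adlib 12, FAN TRF 6 and vehicle adlib 1. Mki67 was not called, at −0.47 (95% interval −1.15 to 0.21, adjusted p = 0.399). The threshold was missed by Foxm1 (0.321) and Top2a (0.617) in the libraries of earlier sheet positions alone. Top2a (0.0626) also missed it with the trend on transcript length removed.

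Calls in other nephron segments were made for 2 of 13 thick ascending limb genes (Cldn10 and Ppp1r1a), 2 of 13 distal convoluted tubule genes (Pvalb and Emx1), 1 of 15 intercalated cell genes (Rhbg) and 0 of 11 principal cell genes, with all calls on the higher side (background 7.76%). The medians of these 4 lists, 0.26, 0.13, 0.18 and 0.19, all turned negative with library-size scaling. Calls in the same order were then 0, 1, 0 and 0 higher and 3, 3, 2 and 3 lower. Pvalb, a calcium buffer of the early distal tubule, averaged 10.6 ± 4.89 CPM in FAN adlib and 26.9 ± 6.47 in FAN TRF libraries, with a log2 difference of 1.48 ± 0.36 (SE, adjusted p = 0.014). Umod and Egf of the thick ascending limb were not called, at −0.76 (95% interval −1.51 to −0.01, adjusted p = 0.205) and 0.91 (95% interval −0.15 to 1.97, adjusted p = 0.285). Podocyte (14) and myofibroblast and pericyte (15) genes had 0 calls by edgeR at the adjusted threshold, and endothelial genes 1 of 18, the angiopoietin receptor Tek, at 0.81 ± 0.23 (SE, adjusted p = 0.0293); its call was lost without FAN adlib 6, FAN adlib 7, FAN TRF 12, vehicle adlib 2 or vehicle TRF 1 (adjusted p 0.0532 to 0.0658). Among alternatives, the threshold was missed by Pvalb (0.0863), Ppp1r1a (0.102), Emx1 (0.255), Rhbg (0.112) and Tek (0.116) in the libraries of earlier sheet positions alone. Pvalb (0.317), Cldn10 (0.305), Ppp1r1a (0.231), Rhbg (0.374) and Tek (0.254) also missed it in the libraries of later sheet positions alone. Cldn10 (0.304), Ppp1r1a (0.398), Emx1 (0.138), Rhbg (0.224) and Tek (0.452) also missed it under library-size scaling. Cldn10 (0.0505) and Ppp1r1a (0.081) also missed it with the trend on transcript length removed. Rhbg (0.0766) also missed it with no filter on low counts. Leaving out 1 library ended the call of Ppp1r1a in 9 of 16 fits (adjusted p 0.0508 to 0.0799) and that of Rhbg in 7 (adjusted p 0.0662 to 0.0875).

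Among markers of tissue next to the kidney, 1 gene was called. Of the 2 adrenal cortex genes tested, Mc2r, the corticotropin receptor, was called lower (adjusted p = 0.0125), with means of 1.93 CPM in FAN adlib and 0.394 in FAN TRF libraries. Vehicle means were 0.0413 and 0.245 CPM, around what a count of 0 allows, so no fold is given. The filter on low counts works by group, so Mc2r may have entered the test through FAN adlib, where it was highest. No conclusion about adrenal tissue is drawn from its call, and the other adrenal gene tested was not called. In the libraries of earlier and of later sheet positions alone, the adjusted p of Mc2r was 0.241 and 0.0512. The summed level of the adrenal list, of which Mc2r is part, was 5.99 to 7.53 CPM in FAN adlib and 3.25 to 5.21 in FAN TRF libraries. It was 3.64 to 5.29 CPM in vehicle adlib and 3.94 to 5.22 in vehicle TRF libraries. Adipocyte genes (13), erythrocyte genes (8) and immediate early genes (20) had 0 calls by edgeR, at medians of −1.48, 0.95 and −0.09. Adipocyte markers summed to 113 to 393 CPM in FAN adlib, 173 to 276 in FAN TRF, 186 to 679 in vehicle adlib and 139 to 1186 in vehicle TRF libraries, so all 4 groups overlapped. In the 12 lists with 0 calls, 21 of the 190 list members tested had an unadjusted p below 0.05 by edgeR, DESeq2 called 4 and limma voom called 10 higher and 20 lower, 7 of these 20 among myofibroblast and pericyte genes. Over all 17731 genes tested, 4237 had such a p, DESeq2 called 2180 and limma voom called 3253 higher and 2011 lower. Library-size scaling gave 0 higher and 37 lower calls in the 12 lists, with 11 in interferon response, 8 in myofibroblast and pericyte and 6 in chemokine and cytokine genes. It gave 504 higher and 6127 lower calls over all genes tested. The part of mitochondrial share, transcript length or these other markers in any result was not tested beyond the counts given.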

How the data were processed

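Kidney RNA of 16 libraries was used as 1 table of raw read counts per gene deposited by the authors. Per the labels' protocols, RNA came from frozen kidney powder and libraries from a stranded poly(A) kit. The submitters' processing notes list STAR 2.5.3a, edgeR 3.26.7, FastQC 0.11.5 and the mm10 build. The counting tool and strand setting are not given in the sources used here, so reads of overlapping, antisense or near-identical genes may be mixed. Column numbers of the FAN libraries differ from the sample titles, so these were mapped to their group only. Coordinates come from GENCODE M21 (GRCm38) by Ensembl identifier, since only 2.9% of the table's starts equal it.

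The analysis used edgeR 4.0.16 in R 4.3.3 (filterByExpr by group, minimum count 10, TMM, 1 quasi-likelihood model of 4 group means with robust dispersion, two-sided tests) and the pipeline was tested on simulated data. Adjusted p are Benjamini-Hochberg values over 17731 genes. No 2 libraries of a group were copies (chi-square per gene at least 18.4). Alternatives used DESeq2 1.42.0, limma 3.58.1 (voom), other filters and scaling, a replicate block, the sheet position set, the length trend removed and each library left out.

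Genes were named by rule: the 12 smallest p and 8 largest differences per direction, up to 3 called members per list (44 lists), the 8 top genes of opposite sign (minimum mean 5 CPM, lists excepted), and 38 fixed genes. Some of these genes are not reported here. Members and lists were chosen with earlier results of these data known.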

Additional observations from a re-analysis of the deposited data

Results flagged for a closer look

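Genes called for the interaction, 1376 higher and 249 lower, are those whose FAN change differed between the feeding regimens by edgeR's test of the difference itself. Among 23 genes given per library and the mitochondrial share, 96 groups of 4 libraries were examined for a library apart from the other 3 (Dixon's test at 95%), and 5 had one, close to the 1 in 20 that chance gives. FAN TRF 12, the library with the lowest total count, was high for Acy1, at 119 CPM against 96.9 to 97.5 in the other 3, and for Hnf4a, at 435 CPM against 345 to 360.5. Vehicle adlib 1 was low for Acy1, at 269 CPM against 319.5 to 326. Vehicle TRF 2 was low for Hlf, at 89.2 CPM against 118 to 122. Vehicle TRF 1 was high for Col5a2, at 34.5 CPM against 17.5 to 19.1. Acy1, Hnf4a, Hlf and Col5a2 were called in each of the 16 fits that left out 1 library.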

How the results depend on the processing

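Of 3356 alternative values of the 120 called genes examined by name, 2965 stayed past the threshold, 391 did not and 0 changed sign. Genes called numbered 1625, with 1376 higher and 1.40% of genes tested lower, and 0 for feeding in vehicle. Called and higher genes were 6631 and 504 with library-size scaling (34.6% of genes tested lower), 5264 and 3253 with limma voom (11.3%), and 881 and 757 with an absolute log2 difference of at least 1 (0.699%). Lower genes made 3.33% with DESeq2 (590 genes, 72.9% of calls higher) and 0.465% with no filter on low counts. Chosen after seeing the data, earlier sheet positions alone, with 1 FAN TRF library assumed to vary like the other groups, gave 4.75% lower (58.4% of calls higher), and later positions alone, where FAN and vehicle come from different runs, 905 called, 834 higher and 0.401% lower. Feeding in vehicle gave 58 with DESeq2, 35 with voom, 6 with no filter, 1 with the position set as a covariate and 2 with the length trend removed. Leaving out 1 library gave 1160 to 2371 called, 1025 to 1819 higher, 0.702% to 3.06% lower, and 0 to 4 for feeding in vehicle. The replicate block gave 877 called, 774 higher and 0.581% lower; numbers are not given as pairs, same-numbered libraries correlated at −0.25 to −0.05 in FAN and −0.15 to 0.18 in vehicle, and 0 of 6 and 3 of 8 correlated best with their own number. In the replicate block fit the threshold was missed by Aen (0.1), Cd163 (0.0835), Clu (0.12), Emx1 (0.0951), Esrra (0.134), Foxm1 (0.0838) and Hspd1 (0.0704). Hspe1 (0.0656), Prom1 (0.0989), Pth1r (0.0802), Rhbg (0.185), Slc7a11 (0.0745), Smad3 (0.107) and Tek (0.0714) also missed it there. So did Top2a (0.083), Zfp512b (0.134), Ppp1r1a (0.0578), Ehhadh (0.0516), Creld2 (0.0512), Siglec1 (0.0508), Cldn10 (0.0501) and Cubn (0.0501). The cause of these differences was not tested. The planned fit of earlier positions with at least 2 libraries in all groups was not run, since FAN TRF has 1. Depth limits genes near 0.241 CPM, such as Mc2r and Slc7a11.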
